A study of Homo sapiens with 73 samples.

Results

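The genes described here are 10 regulators of the G1 phase, chosen by symbol: the D cyclins CCND1, CCND2 and CCND3, the E cyclins CCNE1 and CCNE2, the kinases CDK4 and CDK6, and the kinase inhibitors CDKN1B, CDKN1C and CDKN2C. All 10 were found among the 36233 genes of the deposited table, and all 10 had a mean of at least 10 and so were among the 14565 genes tested. The samples came from CHLA-9, a long-used cell line of Ewing sarcoma, a bone tumour of the young, with the fusion gene EWSR1-FLI1. In 7 treated lineages (R1 to R7, 49 libraries), cultures received 2 drug mixtures in turn. VDC holds vincristine, doxorubicin and cyclophosphamide, and EC holds etoposide with cyclophosphamide. Each was given for 5 days at the concentration giving 70% effect, and RNA was taken once the cells had regrown in drug-free medium. A cycle was VDC (odd time points) and then EC (even ones), and 5 cycles gave 10 time points. In 3 lineages (R8 to R10, 23 libraries), cultures received the solvent DMSO on the same schedule, and 1 library came from the untreated parental line. All lineages derive from that 1 line, so they are parallel cultures of it and not separate tumours. At time point 2 only DMSO lineages are included, at time point 3 only treated lineages, and at time point 7 a single DMSO library (R8).

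Cells leave G1 when D cyclins, bound to CDK4 or CDK6, begin to phosphorylate the retinoblastoma protein, and E cyclins, bound to CDK2, complete this step. Phosphorylation releases E2F transcription factors, which switch on genes of DNA synthesis and also the E cyclin genes. Inhibitors of the INK4 family, such as p18 from CDKN2C, bind CDK4 and CDK6, and inhibitors of the CIP/KIP family, such as p27 from CDKN1B and p57 from CDKN1C, bind cyclin-kinase complexes. Ewing sarcoma cells are known for high cyclin D1, the product of CCND1.

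The values are quantile-normalized counts, called normalized counts below. The columns of the treated arm all had a total of 13583520 and those of the DMSO arm and parental line 13582508, so sequencing depth cannot be read from them and counting error is not given. The arms thus carry slightly different shared distributions, and differences between arms cross that border. Of 10 Ewing sarcoma markers, 9 had a mean of at least 10 and CD99 was near 0 (median 0.581). It was also near 0 in the parental library (0.750), and the reason was not determined. A mean of at least 10 was also reached by 3 of 8 epithelial, 3 of 8 blood, 6 of 8 fibroblast and muscle and 0 of 4 endothelial markers, and means were below 1 for 5, 3, 2 and 2 of them in that order, EPCAM, CDH1, CD3E, HBB, MYOD1 and PECAM1 among them. Of the 72 lineage libraries, treated R1 at time point 1 lay nearest to the parental library (root mean square log2 difference 0.540). Late libraries lay farthest, in the treated arm those of R2 at the last time point (1.39) and of R1 at the one before (1.33), and in the DMSO arm 2 of R9 (1.28 and 1.19) and 1 of R10 (1.15).

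Upstream sequences are shown for 3 members: CDK6, the only member with a change past the threshold, and CCNE1 and CDKN2C, which varied together with genes of DNA synthesis. The RefSeq promoter table (GRCh38.p14) held 6 of the 10 members with 11 start sites. CCND1, CCND2, CCNE2 and CDKN1C were not in it. Windows of 250 bases before each start were searched on both strands for E2F words of 8 letters. A second search used the 7-letter form TTNNCGC with C or G at each N, and overlapping matches were counted separately. The 8-letter words were found in 0 of 11 windows, against 2.77% of 34943 windows in the whole table. The 7-letter form was found in 1 of 11 windows, against 10.8% in the whole table. That window precedes the second CDKN2C start, begins within an annotated exon of the gene and held TTCCCGC at 2 places. The first lies 131 bases before the start and is read on the opposite strand, and the second lies 34 bases before it. Each is shown with 10 bases on either side and the word in capitals. The CCNE1 and CDK6 stretches stop at the first base of an annotated exon (GENCODE v29) and hold no match, so nothing is in capitals. A match is a description of letters only.
CDKN2C, chr1:50968565-50968591, plus strand: agagcgggagGCGGGAAtgagggcgcg
CDKN2C, chr1:50968662-50968688, plus strand: gcgcccggccTTCCCGCtcccgcggcg
CCNE1, chr19:29811741-29811897, plus strand: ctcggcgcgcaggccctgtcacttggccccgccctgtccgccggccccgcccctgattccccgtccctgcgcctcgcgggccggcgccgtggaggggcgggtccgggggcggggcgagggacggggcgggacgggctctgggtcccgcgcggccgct
CDK6, chr7:92836595-92836823, minus strand: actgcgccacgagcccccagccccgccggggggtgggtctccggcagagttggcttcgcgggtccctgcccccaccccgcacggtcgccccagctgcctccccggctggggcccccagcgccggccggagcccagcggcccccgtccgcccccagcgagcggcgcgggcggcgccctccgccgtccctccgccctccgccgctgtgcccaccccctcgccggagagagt

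Per kilobase of exon (GENCODE v29), the level of CCND1 stood apart from all other members, at a median of 8682 over 72 libraries and a range of 3922 to 12323 that reached no other gene. CDK4 (median 525.7 per kilobase), CCND2 (511), CDKN2C (446) and CDKN1B (296) formed a middle group whose ranges over libraries overlapped, so their order does not hold in every library. CCND3 (72.8 per kilobase), CCNE2 (47.0), CDKN1C (34.8), CDK6 (34.3) and CCNE1 (31.9) followed, also with overlapping ranges. CDK6 reached from 2.77 to 327 per kilobase, the widest range relative to its median.

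The members differed in how steady they were. The SD of log2 normalized counts over the 72 lineage libraries was 0.135 for CDK4, at the 3.71 percentile of all tested genes, and 1.38 for CDK6, at the 96.6 percentile. It was 0.276 for CCND1, 0.275 for CCND3 and 0.295 for CDKN1B, all below the median of tested genes (0.323). It was 0.411 for CDKN2C, 0.536 for CCND2, 0.564 for CCNE2, 0.660 for CCNE1 and 0.732 for CDKN1C.

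**Figure D1:**
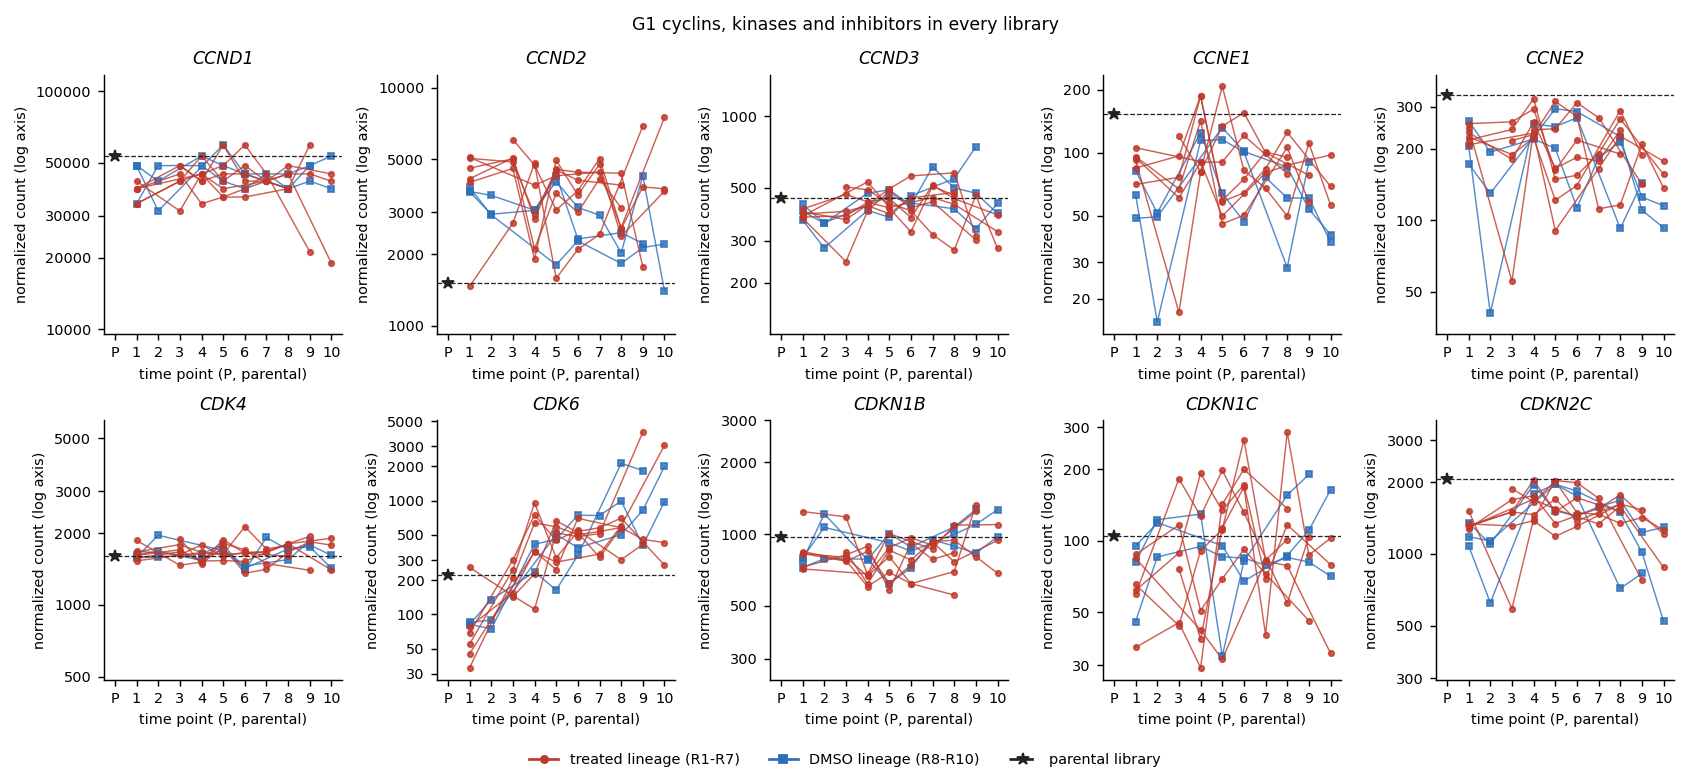
Normalized counts (log axis) of the 10 members by time point, with treated lineages as red circles, DMSO lineages as blue squares and the parental library (P) as a black star and dashed line. Each line joins the libraries of 1 lineage, also across time points without a library. CDK6 climbs from time point 1 in both arms, and CDK4 stays between 1359 and 2133.

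CDK6, the second kinase partner of the D cyclins, was the only member whose level changed past the threshold over the experiment, and it did so in both arms. It lies on chromosome 7 from 92604921 to 92836594 (GRCh38, minus strand). At time point 1 the treated lineages R2, R3, R4, R6 and R7 had 45.0, 77.7, 68.8, 54.9 and 33.9 normalized counts and R1 had 258.8, against 81.8, 81.3 and 85.2 in DMSO lineages R8 to R10 and 220.7 in the parental library. All libraries of time point 1 except R1 thus lay under the parental level.

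At time point 5 CDK6 had a median of 448.9 in 7 treated libraries (247.2 to 664.4) and 459.3 in 3 DMSO libraries (163.9 to 504.7). At time point 8 the 6 treated libraries lay between 302.9 and 701.9, and the 3 DMSO libraries at 992.4 (R8), 2133 (R9) and 502.2 (R10). At time point 9 treated R1 had 4012, R4 412.2 and R5 456.3, and DMSO R8, R9 and R10 had 403.7, 1844 and 823.6. At time point 10 treated R2 had 3073, R5 428.3 and R6 270.8, against 983.5 in R8 and 2004 in R10. The arms overlapped at each of these time points, and the highest values lay in late libraries of R1 and R2 in the treated arm and of R9 and R10 in the DMSO arm.

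From its first to its last library, CDK6 was 15.5-fold higher in R1, 68.3-fold in R2, 7.45-fold in R3, 6.00-fold in R4, 2.99-fold in R5 (first sampled at time point 3), 4.93-fold in R6 and 17.1-fold in R7. In DMSO lineages it was 12.03-fold higher in R8, 22.7-fold in R9 and 23.5-fold in R10. Each of the 10 lineages ended above its start. The slope of log2(normalized count + 1) was 0.38 ± 0.065 per time point in treated lineages (SE, 7 of 7 positive, 0.18 to 0.57, adjusted p = 0.00316 in limma with Benjamini-Hochberg). In treated lineages 39.4% of all tested genes were called for their slope, and 1 of the 10 members was. In DMSO lineages the slope was 0.48 ± 0.098 (SE, 3 of 3 positive, 0.39 to 0.58, adjusted p = 0.0263), where 9.87% of tested genes were called and again 1 of 10 members.

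The CDK6 slopes of the arms differed by -0.10 ± 0.12 log2 per time point (treated minus DMSO, SE, adjusted p = 0.813), a difference smaller than its error. No gene passed for this difference (0%), and 9.15% of genes but 0 members had an unadjusted p under 0.05. Without time point 1 the rise was no longer called in either arm, at 0.28 in treated lineages (adjusted p = 0.0897) and 0.48 in DMSO lineages (adjusted p = 0.162). The DMSO call was also lost without R9 (0.42, adjusted p = 0.189), without R10 (0.49, adjusted p = 0.136) and without the filter on low values (0.48, adjusted p = 0.0539).

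**Figure D2:**
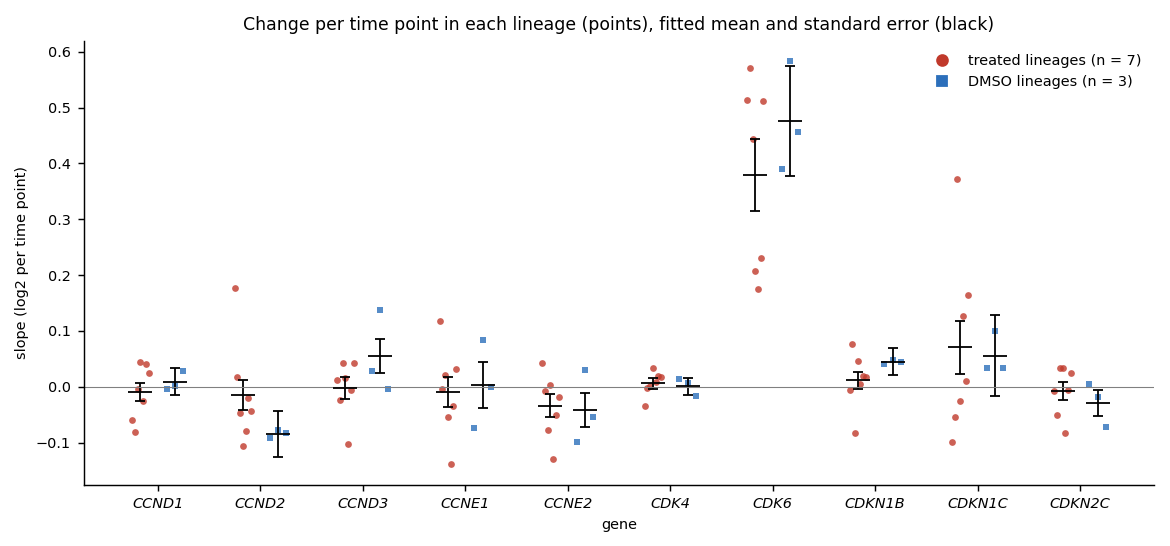
Slope of log2(normalized count + 1) per time point for each member, with 1 red circle per treated lineage (n = 7), 1 blue square per DMSO lineage (n = 3) and the fitted mean with its standard error in black. The slopes of CDK6 lie between 0.18 and 0.57 in treated and 0.39 and 0.58 in DMSO lineages, and those of the other 9 members take both signs in treated lineages, while all 3 DMSO slopes are negative for CCND2 (-0.092 to -0.078) and positive for CDKN1B (0.041 to 0.048) and CDKN1C (0.033 to 0.10).

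Other RNA moved with CDK6 over time. All 13 mitochondrially encoded genes fell in both arms (slope of COX1 -0.16 ± 0.023 in treated lineages, adjusted p = 0.00216, and of ND2 -0.24 ± 0.038 in DMSO lineages, adjusted p = 0.0209, SE, limma). Their summed level ranged from 47822 to 486847 in treated and from 60138 to 378999 in DMSO libraries, and their mean log2 level correlated with log2 CDK6 at r = -0.68 over 72 libraries, which share lineages and the common normalization. Over all tested genes 15.6% rose and 23.8% fell in treated lineages, and 4.55% rose and 5.31% fell in DMSO lineages. Of 8 immediate early genes, 5 rose in treated lineages and 0 in DMSO lineages, among them EGR1 (0.28 ± 0.075 log2 per time point, SE, adjusted p = 0.0144), with summed levels of 1134 to 59867 in treated and 3479 to 45284 in DMSO libraries. ATF3 had a slope of 0.34 ± 0.098 in treated (adjusted p = 0.0217) and 0.40 ± 0.15 in DMSO lineages (adjusted p = 0.0982, SE, limma). Counts of calls rest on 7 treated and 3 DMSO lineages and do not rank the arms. Of the epithelial markers, 3 of 8 were tested, of which 3 rose in treated and 1 in DMSO lineages. Their median slope was 0.32 log2 per time point in treated and 0.48 in DMSO lineages. Their sums were 15.1 to 763 in treated and 15.9 to 1461 in DMSO libraries, while EPCAM, CDH1, KRT19, KRT5 and KRT14 had means below 1. Of the fibroblast and muscle markers, 6 of 8 were tested, of which 4 rose in treated and 1 in DMSO lineages. Their median slope was 0.16 in treated and -0.033 in DMSO lineages. Their sums were 16341 to 88515 in treated and 12670 to 35950 in DMSO libraries, while MYOD1 and MYOG had means below 1. Of the 9 tested Ewing sarcoma markers, 5 fell in treated and 4 in DMSO lineages, with sums of 29002 to 48970 in treated and 34745 to 53440 in DMSO libraries. Of the blood markers, 3 of 8 were tested, of which 1 fell in treated and 1 rose in DMSO lineages, and no endothelial marker was tested. Markers were tested by their mean over all libraries, so one that is low in most of them enters only through the libraries where it is high. The part of these in the CDK6 result was not tested.

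Over the 72 libraries, the genes whose log2 level was most like that of CDK6 were FLNC (r = 0.946), STAMBPL1 (0.946) and SCRN1 (0.940). Among the members, CDK6 correlated with none beyond 0.28 in either direction over the 72 libraries (CCND2 at r = -0.28, CDKN1C at 0.28). The arms gave different values. With CCND2 it was -0.15 over 49 treated and -0.60 over 23 DMSO libraries, with CCND3 0.0061 in treated and 0.60 in DMSO, and with CDKN1C 0.23 in treated and 0.44 in DMSO. Without the 6 late libraries, R1 at time point 9 and R2 at 10 of the treated arm and R9 at 8 and 9 and R10 at 9 and 10 of the DMSO arm, r was -0.45 with CCND2 and 0.42 with CDKN2C. These correlations describe libraries that share lineages and time, and carry no test.

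CDK4, the other kinase partner of the D cyclins, was the steadiest member (chromosome 12, 57747727 to 57756013, minus strand). It had a median of 1667 normalized counts in 49 treated libraries (1359 to 2133) and 1636 in 23 DMSO libraries (1398 to 1962), against 1602 in the parental library. The arms overlapped over nearly their whole ranges. Its slope was 0.0059 ± 0.0098 log2 per time point in treated and 0.00076 ± 0.015 in DMSO lineages (SE), and neither passed. At time point 6 CDK4 differed by 0.22 ± 0.093 log2 (treated minus DMSO, SE, unadjusted p = 0.0241, adjusted p = 1 in limma), with 1359 to 2133 in 6 treated and 1398 to 1458 in 3 DMSO libraries. TSPAN31, on the opposite strand, overlaps CDK4 and had a median of 293. Whether counting used strand is not given in the sources used here, so reads of the overlap cannot be told apart.

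CCND1, the most abundant D cyclin of these cells (chromosome 11, 69641087 to 69654474), ranked between 5 and 34 among all genes in each lineage library. It had a median of 41935 normalized counts in treated libraries (18942 to 59514) and 44969 in DMSO libraries (31436 to 59518), against 53468 in the parental library. Because quantile normalization gives each rank a fixed value, the 72 libraries held only 19 distinct values of CCND1, and small differences between them are steps of rank. Adjusted for time point, CCND1 differed by -0.17 ± 0.065 log2 (treated minus DMSO, SE, limma adjusted p = 0.322, exact permutation p = 0.025, 2-sided, 120 splits of 7 and 3 lineages). The lineage levels ran from 15.15 to 15.44 in treated and from 15.35 to 15.53 in DMSO lineages on the log2 scale, and overlapped.

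The CCND1 difference was called (-0.26, adjusted p = 0.0483) when DMSO lineage R8 was left out, along with 1356 other genes. Its lowest values were 18942 in the last library of treated R2 and 21176 in the last of treated R1. The other 70 libraries lay between 31434 and 59518. These 2 libraries also had the highest CDK6. LTO1 overlaps CCND1 on the opposite strand and had a median of 539. The genes most like CCND1 were MAP3K5 (r = 0.740), HOXC12 (0.724) and SIN3A (0.703), and without the 2 libraries farthest from the median these were 0.506, 0.663 and 0.627.

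CCND2, cyclin D2, was the D cyclin that varied most between libraries (chromosome 12, 4273772 to 4305350). It had a median of 3999 normalized counts in treated libraries (1462 to 7512) and 2921 in DMSO libraries (1398 to 4269), against 1506 in the parental library. At time point 1 treated R1 had 1462 and the other 5 treated lineages 3999 to 5094, against 3653 to 3811 in the DMSO lineages. Of the 72 libraries only 2 lay under the parental level, treated R1 at time point 1 and DMSO R8 at time point 10 (1398).

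Over all time points CCND2 was 0.41 ± 0.15 log2 higher in treated than in DMSO lineages by estimate, without passing (SE, limma adjusted p = 0.309, exact permutation p = 0.05, 2-sided). The lineage levels were 11.35 to 12.17 in treated and 11.24 to 11.57 in DMSO lineages, and 6 of 7 treated lineages lay above all 3 DMSO lineages, with R1 the exception. At time point 10 CCND2 had 7512 (R2), 3759 (R5) and 3676 (R6) in treated libraries, against 1398 (R8) and 2204 (R10) in DMSO libraries. The difference of 1.42 ± 0.45 log2 had an adjusted p of 0.168 (SE, limma, unadjusted p = 0.0023). With R1 left out of the shared fit it passed (1.42, adjusted p = 0.0317), although R1 has no library at that time point and gives only to the spread.

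The slope of CCND2 was -0.015 ± 0.027 log2 per time point in treated lineages and -0.084 ± 0.042 in DMSO lineages (SE, adjusted p = 0.69 and 0.178 in limma). It was negative in 5 of 7 treated lineages and in 3 of 3 DMSO lineages (-0.092 to -0.078). Treated R1 had the largest positive slope, 0.18, with 1462 at time point 1 and 6897 at time point 9. Without R1 the slope passed in both arms (-0.047 in treated lineages, adjusted p = 0.0401, and -0.084 in DMSO lineages, adjusted p = 0.043). The DMSO estimate itself did not change, since R1 is a treated lineage and gives only to the shared spread (SE 0.042 with it, 0.021 without). Without the last libraries of R1 and R2 it passed in treated lineages (-0.050, adjusted p = 0.0374), and with lineage as a replicate block it passed in DMSO lineages (-0.087, adjusted p = 0.0339). The antisense gene CCND2-AS1 overlaps CCND2 and had a median of 11.9. The genes most like CCND2 were VASH1 (r = 0.697), MCF2L (0.666) and AGAP1 (0.645).

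**Figure D3:**
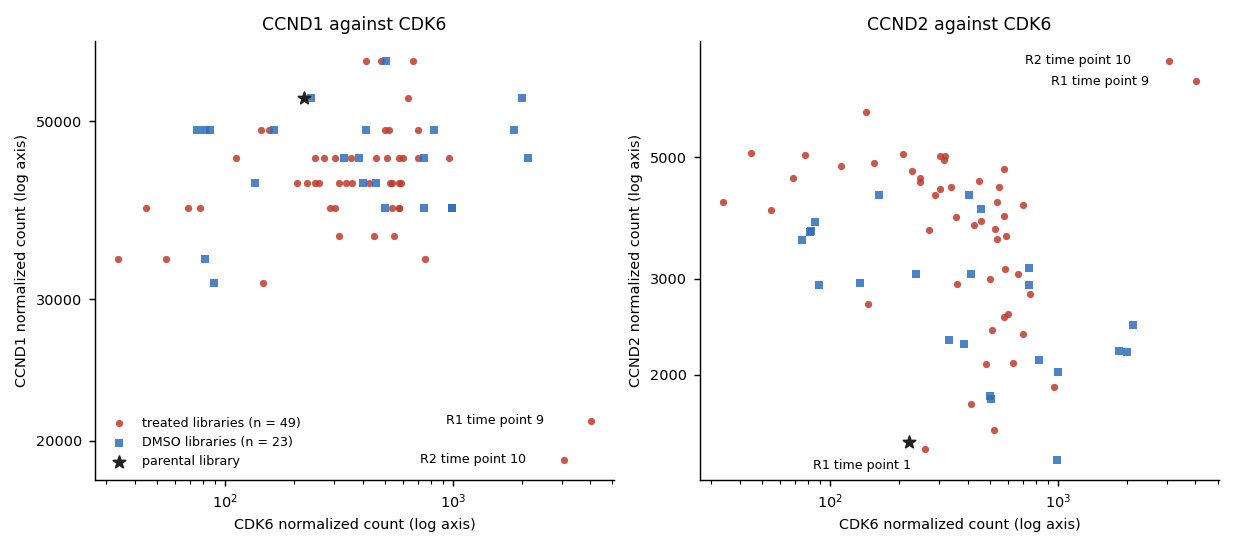
CCND1 (left) and CCND2 (right) against CDK6, both as normalized counts on log axes, for treated libraries (red circles, n = 49), DMSO libraries (blue squares, n = 23) and the parental library (black star). The last libraries of treated R1 and R2 hold the highest CDK6 (4012 and 3073) and CCND2 (6897 and 7512) and the lowest CCND1 (21176 and 18942), and treated R1 at time point 1 lies beside the parental library in CCND2.

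CCND3, cyclin D3 (chromosome 6, 41934933 to 42050357, minus strand), had a median of 414 normalized counts in treated libraries (245 to 579) and 427 in DMSO libraries (280 to 745), against 453 in the parental library. The highest was DMSO R9 at time point 9 (744.9), and the lowest treated R1 at time point 3 (245.4). Adjusted for time point, it differed by -0.14 ± 0.059 log2 (treated minus DMSO, SE, limma adjusted p = 0.336, exact permutation p = 0.05, 2-sided), with overlapping lineage levels. At time point 9 treated libraries had 302.5 (R1), 314.1 (R4) and 465.4 (R5), against 475.4 (R8), 744.9 (R9) and 337.3 (R10) in DMSO libraries. The groups overlapped, and the difference of -0.48 ± 0.21 did not pass (SE, limma adjusted p = 0.244). Without R5 it passed, at -0.67 (adjusted p = 0.0484). The genes most like CCND3 were LSM4 (r = 0.756), GRWD1 (0.732) and NOLC1 (0.717).

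Over all time points, 0 of 10 members passed between treated and DMSO lineages and 0% of all tested genes did. An unadjusted p under 0.05 was reached by 4 members, CCND1, CCND2, CCND3 and CCNE1, and by 13.5% of all tested genes. The exact permutation p was 0.2 for CCNE2, 0.267 for CDK4, 0.292 for CDK6 and CDKN1B, 0.383 for CDKN2C and 0.85 for CDKN1C. Permutation p-values were not adjusted over members and were not computed for all genes. The median difference of the 10 members was 0.0015 log2 and that of all tested genes -0.0036, with 5 members positive and 5 negative. At an adjusted p under 0.05 none of the 10 members passed at any single time point, where 0% of genes passed at time points 1, 4, 5, 6, 7 and 8, 1.33% at time point 9 and 0.0618% at time point 10. An unadjusted p under 0.05 was reached by 0 members at time points 1, 4, 5, 7 and 8, where 2.58%, 3.09%, 1.35%, 1.25% and 10.1% of genes reached it in that order. At time point 6 it was reached by CDK4 and CDKN1C (3.9% of genes), at time point 9 by CCND3 (14.9%) and at time point 10 by CCND2 (11.8%). P-values over lineages measure the spread between parallel cultures of 1 line.

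**Figure D4:**
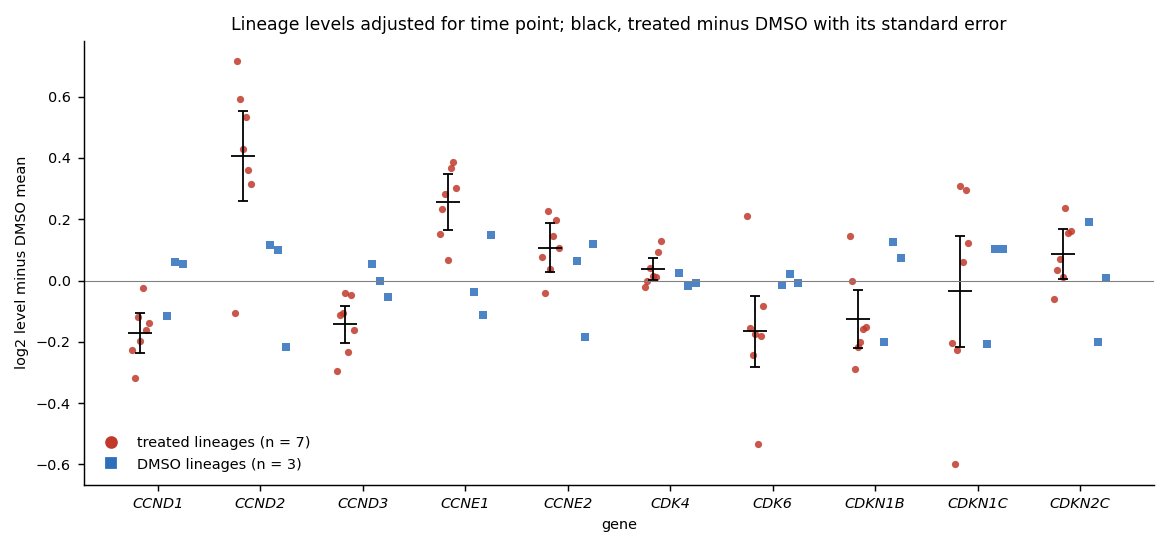
Lineage levels adjusted for time point, as log2 differences from the DMSO mean, with treated lineages as red circles (n = 7) left of DMSO lineages as blue squares (n = 3) and the difference with its standard error in black. The arms overlap for each member, narrowly for CCND3 (8.47 to 8.73 in treated and 8.72 to 8.82 in DMSO lineages as log2 levels).

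The E cyclins and CDKN2C varied together from library to library. CCNE1, cyclin E1 (chromosome 19, 29811898 to 29824308), had a median of 84.3 normalized counts in treated libraries (17.3 to 207) and 62.9 in DMSO libraries (15.5 to 132), against 153 in the parental library. CCNE2, cyclin E2 (chromosome 8, 94879770 to 94896678, minus strand), had a median of 216 in treated libraries (55.5 to 324) and 193 in DMSO libraries (40.8 to 294), against 335 in the parental library. CDKN2C, the gene of p18 (chromosome 1, 50960745 to 50974633), had a median of 1501 in treated libraries (589 to 2041) and 1352 in DMSO libraries (522 to 1964), against 2071 in the parental library. The parental values of CCNE2 and CDKN2C lay above all 72 lineage libraries, and that of CCNE1 above 68 of them.

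Over 72 libraries the log2 levels of CCNE1 and CCNE2 correlated at r = 0.85, those of CCNE1 and CDKN2C at 0.72 and those of CCNE2 and CDKN2C at 0.74. After the mean of each arm and time point was taken away, r was 0.85, 0.65 and 0.71. No other pair among the 45 reached 0.6 over the 72 libraries or after that step. Within 1 arm CCND1 and CDKN2C reached 0.77 over 49 treated libraries (-0.0068 in DMSO), and over 23 DMSO libraries CDKN1C and CDKN2C reached -0.62. The last libraries of treated R1 and R2 held the 2 lowest CCND1 values together with low CDKN2C (775 and 878). Over the 72 libraries the r of CCND1 and CDKN2C was 0.40, and 0.27 without the 2 libraries farthest from the CCND1 median. For this pair r was 0.53 without the 6 late libraries, and 0.42 after the mean of each arm and time point was taken away. The libraries share lineages and the common normalization. With the mean log2 level of 16 genes of DNA synthesis that E2F is known to drive, such as MCM2, PCNA and RRM2, CCNE1 correlated at r = 0.86, CCNE2 at 0.89 and CDKN2C at 0.72. Without the 2 libraries farthest from the median these were 0.80, 0.82 and 0.61. Against this list CCND3 stood at 0.51, CCND1 at 0.31, CDK4 at 0.21, CDK6 at 0.061, CDKN1C at -0.11, CCND2 at -0.15 and CDKN1B at -0.24. With the mean of 10 mitosis genes, such as MKI67 and PLK1, CCNE1 correlated at 0.75, CCNE2 at 0.67, CDKN2C at 0.61 and CCND3 at 0.55.

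The S phase list was lowest in DMSO R9 at time point 2 (mean log2 level 8.75) and treated R1 at time point 3 (9.00), while the medians were 10.4 in treated and 10.2 in DMSO libraries. In treated R1 at time point 3 CCNE1 had 17.3, CCNE2 55.5 and CDKN2C 589, and in DMSO R9 at time point 2 they had 15.5, 40.8 and 624. These were the lowest CCNE1 and CCNE2 of all libraries, and the next lowest were 28.2 and 90.6. For CDKN2C DMSO R10 at time point 10 was lower still, with 522. The mitochondrially encoded genes summed to 486847 in that treated library, the highest of its arm, and to 358813 in that DMSO library, against medians of 117456 in treated and 119723 in DMSO libraries. Their part in the low values was not tested.

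**Figure D5:**
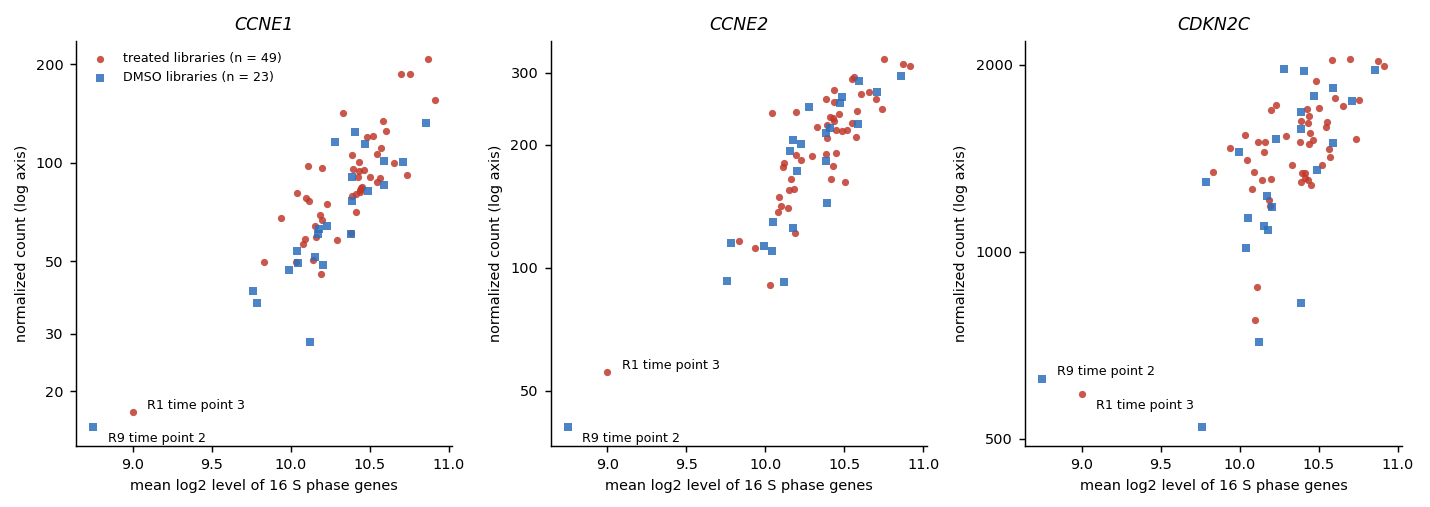
CCNE1, CCNE2 and CDKN2C (normalized counts, log axis) against the mean log2 level of 16 S phase genes, with treated libraries as red circles (n = 49) and DMSO libraries as blue squares (n = 23). Treated R1 at time point 3 and DMSO R9 at time point 2 lie apart at the lower left, at mean levels of 9.00 and 8.75.

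Between arms, CCNE1 differed by 0.26 ± 0.091 log2 over all time points (treated minus DMSO, SE, limma adjusted p = 0.308), and the exact permutation p was 0.0167 (2-sided, 120 splits). The lineage levels were 6.08 to 6.40 in treated and 5.90 to 6.16 in DMSO lineages, and overlapped by 1 DMSO lineage. CCNE2 differed by 0.11 ± 0.078 and CDKN2C by 0.087 ± 0.081 (SE), and neither passed. No slope of these 3 genes passed in either arm. Without the 2 libraries of low S phase genes, a setting chosen after the data were seen, the CCNE2 slope passed in both arms, at -0.049 in treated lineages (adjusted p = 0.0325) and -0.092 in DMSO lineages (adjusted p = 0.0397).

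The genes most like CCNE2 were FAM111B (r = 0.939), TCF19 (0.923) and CLSPN (0.921), those most like CCNE1 were CLSPN (0.882), CDC45 (0.872) and ICMT (0.867), and those most like CDKN2C included HNRNPM (0.882) and ICMT (0.845). CLSPN encodes the checkpoint adaptor claspin and CDC45 a part of the replicative helicase. CCNE2 overlaps INTS8 (median 1192) and NDUFAF6 (median 584) on the opposite strand, both more abundant than CCNE2, so a share of its counts cannot be told apart from theirs.

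CDKN1B, the gene of p27 (chromosome 12, 12715058 to 12722371), had a median of 817 normalized counts in treated libraries (555 to 1326) and 890 in DMSO libraries (619 to 1268), against 975 in the parental library. Treated R1 stood apart from the other treated lineages early, with 1243 at time point 1, where they had 714 to 845, and 1181 at time point 3, where they had 769 to 844. Between arms CDKN1B differed by -0.12 ± 0.094 log2 over all time points (SE, limma adjusted p = 0.557). Its slope was 0.011 ± 0.016 log2 per time point in treated lineages (5 of 7 positive) and 0.045 ± 0.024 in DMSO lineages (SE, 3 of 3 positive, adjusted p = 0.218). In the DMSO arm R8 lay lowest, with a level of 9.65 on the log2 scale adjusted for time point, under the highest of the 3 at 9.98. The genes most like CDKN1B were DRAM2 (r = 0.746), MEIOB (0.711) and KLHL23 (0.710).

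CDKN1C, the gene of p57 (chromosome 11, 2883213 to 2885773, minus strand), is an imprinted gene expressed mainly from the maternal copy. It had a median of 87.1 normalized counts in treated libraries (29.3 to 286) and 85.7 in DMSO libraries (32.8 to 190), against 105 in the parental library. Its highest values were 286 in treated R5 at time point 8 and 266 in treated R7 at time point 6, and its lowest 29.3 in treated R3 at time point 4. Within treated R5 it had 40.3 at time point 7 and 286 at time point 8, so 1 lineage covered most of the range. At time point 6 the treated libraries had 92.0 (R1), 199.7 (R3), 131.6 (R4), 168.3 (R5), 172.2 (R6) and 266.1 (R7), against 84.6 (R8), 81.9 (R9) and 67.7 (R10) in DMSO libraries. The difference of 1.06 ± 0.48 log2 had an adjusted p of 0.9999 (SE, limma, unadjusted p = 0.031).

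Over all time points CDKN1C differed by -0.035 ± 0.18 log2 between arms (SE, adjusted p = 0.947 in limma). Of 8 imprinted or neighbouring genes of its chromosome region, 6 were tested. CD81 rose in treated lineages (0.048 ± 0.011 log2 per time point, SE, adjusted p = 0.00864 in limma). IGF2 ran from 0.0256 to 75.7 normalized counts in treated and from 0.645 to 177 in DMSO libraries, and PHLDA2 from 0.00351 to 29.96 in treated and from 0.0111 to 249 in DMSO libraries. The mean of PHLDA2 was 4.94 in treated and 31.2 in DMSO libraries, against medians of 3.43 and 3.67 in that order, so it entered the test only through its high DMSO libraries and its slopes are not read as calls. The slope of IGF2 was 0.32 ± 0.067 in treated (adjusted p = 0.00613) and 0.41 ± 0.10 in DMSO lineages (adjusted p = 0.0372, SE, limma), and its means of 15.8 in treated and 27.8 in DMSO libraries also lay above its medians of 11.6 and 8.59 in that order. The slope of CDKN1C itself was 0.071 ± 0.047 in treated and 0.055 ± 0.072 in DMSO lineages (SE) and passed in neither. The genes most like it were USP43 (r = 0.648), SLC25A3 (0.595) and RBMS1 (0.560), the weakest likeness of the 10 members.

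Libraries taken after VDC and after EC were compared within the treated lineages, with lineage as a block and a linear time term. None of the 10 members passed and 0% of all genes did. An unadjusted p under 0.05 was reached by CCNE2, at -0.33 ± 0.15 log2 (after VDC minus after EC, SE, adjusted p = 0.281 in limma), and by CDKN1B, at 0.19 ± 0.079 (SE, adjusted p = 0.242 in limma), against 14.5% of all genes. In DMSO lineages, where no drug alternates, odd and even time points gave 0% of genes and 0 members. There CCND2 (0.29 ± 0.13, SE) and CDK4 (0.13 ± 0.059) had an unadjusted p under 0.05, against 2.53% of genes. For the difference of this effect between arms 0% of genes passed, and CCNE2 alone among the members had an unadjusted p under 0.05 (-0.59 ± 0.29, SE, adjusted p = 0.914 in limma, against 4.7% of genes).

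Lineages of the same arm were compared with each other by an F test over their libraries, with time point as a term. Among the 7 treated lineages 0 of 10 members passed, against 0.611% of all genes, and 0 members had an unadjusted p under 0.05, against 9.82% of genes. The largest spread was that of CDKN1C, at 0.85 log2 between the highest and the lowest lineage, followed by CCND2 at 0.77 and CDK6 at 0.67. Among the 3 DMSO lineages 0 members passed, against 0.288% of genes. CDKN1B alone had an unadjusted p under 0.05, at a spread of 0.37 log2 (adjusted p = 0.0905 in limma), against 14.5% of genes.

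Of 13 pocket proteins and E2F factors, which hold or carry out the G1 switch, 3 fell in treated lineages, where 23.8% of all tested genes fell, and 0 in DMSO lineages, where 5.31% fell. The share in treated lineages was near that of all genes. The 3 were the repressive E2F8 (-0.091 ± 0.027 log2 per time point, adjusted p = 0.0235), the pocket protein RBL2 (-0.035 ± 0.012, adjusted p = 0.0375) and the E2F partner TFDP1 (-0.030 ± 0.0099, adjusted p = 0.0334, SE, limma). The smallest p in DMSO lineages was that of E2F6 (0.059 ± 0.025, adjusted p = 0.124). Of 8 other kinase subunits and activators of the G1/S step, 2 rose in treated lineages, CKS2 (0.069 ± 0.024, adjusted p = 0.0433) and CKS1B (0.064 ± 0.022, adjusted p = 0.0377), small proteins that bind cyclin-dependent kinases. Over all tested genes 15.6% rose there. None passed in DMSO lineages, where CKS1B had 0.11 ± 0.033 (adjusted p = 0.0564).

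Of 9 genes of the machinery that degrades cyclins and p27, FBXO31 rose (0.064 ± 0.013 log2 per time point, adjusted p = 0.00559) and FBXO4 fell (-0.049 ± 0.0098, adjusted p = 0.00502) in treated lineages, and FBXO4 fell in DMSO lineages (-0.072 ± 0.015, adjusted p = 0.0263, SE, limma). Both encode F-box proteins. At time point 9 CUL1, the scaffold of these ubiquitin ligases, was lower in treated libraries (-0.41 ± 0.088 log2, SE, adjusted p = 0.0125 in limma), where 1.33% of all tested genes passed. Of the 16 S phase genes, CDT1, a replication licensing factor, rose (0.056 ± 0.018, adjusted p = 0.0345) and MCM7, a helicase subunit, fell (-0.043 ± 0.013, adjusted p = 0.023) in treated lineages, and 0 passed in DMSO lineages. Of 10 mitosis genes 0 passed in treated lineages and AURKA rose in DMSO lineages (0.16 ± 0.043, adjusted p = 0.0456, SE, limma). For comparison, 39.4% of all tested genes were called for their slope in treated lineages and 9.87% in DMSO lineages. No gene of these lists passed between the arms over all time points or for the difference of the slopes, and 0% of all tested genes passed in either comparison. The median slope over all tested genes was -0.0076 in treated and -0.0091 in DMSO lineages.

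Of the other inhibitors, CDKN2A and CDKN2B, which encode p16, p14ARF and p15, were near 0, at medians of 0.0132 and 0.0088 in treated libraries, 0.0154 and 0.0167 in DMSO libraries and 0.0248 for both genes in the parental library. CDKN1A, the gene of p21 and a p53 target, ranged from 50.8 to 4992 in treated and from 53.0 to 10116 in DMSO libraries. Its slope was 0.010 log2 per time point in treated lineages and 0.58 ± 0.17 in DMSO lineages (SE, adjusted p = 0.0527 in limma). The difference of the slopes did not pass (-0.57 ± 0.20, SE, adjusted p = 0.487 in limma), and 0% of all tested genes passed for it. The DMSO lineages differed, with slopes of 0.069 in R8, 0.98 in R9 and 0.69 in R10. From first to last library R8 went from 1229 to 235, R9 from 53.0 to 9436 and R10 from 71.2 to 6010, against 880 in the parental library. Treated slopes ran from -0.33 to 0.49.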

How the data were processed

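Per the labels' protocols, RNA came from Qiagen AllPrep extractions and STAR aligned and counted the reads. featureCounts and the build GRCh38 are named in the submitters' processing notes. Versions and the gene annotation are not given in the sources used here. The deposited values are a signal, quantile-normalized counts, with a shared distribution for treated columns and another for DMSO and parental columns, as the deposited values show. No label describes this normalization. Depth is unknown.

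Groups came from the labels. Values were analysed as log2(value + 1) for 14565 genes (mean 10 or more) in R 4.3.3, using the trend option of limma 3.58.1; tables were read with the data.table package, version 1.17.8. The threshold was a Benjamini-Hochberg adjusted p of 0.05 over all tested genes. A slope, or a level adjusted for time point by least squares, was computed per lineage and compared over 7 treated and 3 DMSO lineages. Single time points used a shared fit of 72 libraries without a lineage term. At time point 7 the lone DMSO library was assumed to vary like the other groups. VDC against EC used lineage as a replicate block. By the labels, a lineage is 1 culture sampled repeatedly, and deviations within it from group means correlated at 0.0814 over 219 pairs, against -0.0152 over 1050 other pairs of the arm. Exact permutation tests used all 120 splits.

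Loci and lengths came from GENCODE v29 and upstream sequences from RefSeq. The functions were tested on simulated data. Figures used matplotlib 3.10.9 with pandas 2.3.3 in Python 3.11.15. The members, the 14 lists (127 genes) and the comparisons were chosen with earlier results of these data known. Named genes were the 10 members, from each list up to 3 genes past the threshold with the largest change or else the smallest p, and the 3 genes most like each member, of which 1 is not reported here. Alternatives covered the pseudocount (5), the filter, the lineage block, separate fits and left-out lineages, time points and libraries.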

Additional observations from a re-analysis of the deposited data

Results flagged for a closer look

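Dixon's test was applied to the treated libraries of each member at each time point with 4 to 10 libraries, 70 groups in all, and 9 groups held a library that stood apart from the rest. Chance gives about 1 in 20 where groups are independent and values are normally distributed. Here the members share libraries, the counts were not on the log scale and CCND1 values can be tied. The 9 are thus not set against that rate. Of the 9, 6 belong to lineage R1 and 4 of these to its first library. At time point 1, R1 had CCND2 at 1462 normalized counts (the other 5 treated lineages 3999 to 5094), CDK6 at 258.8 (33.9 to 77.7), CDKN1B at 1243 (714 to 845) and CDKN2C at 1518 (1278 to 1338). This library was also the nearest of 72 to the parental line, which had CCND2 at 1506, CDK6 at 220.7, CDKN1B at 975 and CDKN2C at 2071. At time point 3, R1 had CDKN1B at 1181, above 769 to 844 in the other 5 lineages. At time point 7, R1 had CCND1 at 44968 while the other 4 lineages all had 41935, a difference of 1 step of rank.

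CDK6 stood apart in R3 at time point 6 (699.7, the others 483 to 547) and in R4 at time point 8 (302.9, the others 579 to 702). CDKN1C stood apart in R5 at time point 8, with 286.4 against 54.8 to 137 in the others.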

How the results depend on the processing

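In the comparison of the arms across the time points 0 members passed, and leaving out single lineages gave 0 to 1 (CCND1 without R8). At time point 9 it gave 0 to 1 (CCND3 without R5) and at time point 10 0 to 1 (CCND2 without R1). For the slope in treated lineages, where 1 member passed, it gave 1 to 2 (CCND2 joined CDK6 without R1), and in DMSO lineages 0 to 2 (none without R9 or R10, CCND2 with CDK6 without R1). Treated R1 enters the DMSO test only through the shared spread. Without time point 1, 0 members passed for the slope in either arm, and without the filter on low values 0 passed in DMSO lineages. Without 2 late treated libraries, 2 passed in treated lineages. With lineage as a replicate block 2 passed in DMSO lineages (CDK6 and CCND2), and the block changed no other count of members. Settings chosen after seeing the data gave 2 in both arms without the 2 libraries with low S phase genes (CCNE2 joined CDK6) and 2 in DMSO lineages without 6 late libraries (CCND2 joined CDK6). The causes were not tested. Over single members, 2653 values kept their direction and their side of the threshold, 162 uncalled values changed sign, 10 passed newly and 5 (all CDK6 slopes) no longer passed. No called value changed sign. The number of all tested genes called for the treated slope lay between 3882 and 6499 and for the DMSO slope between 0 and 2539 when single lineages were left out. Depth is unknown, so how far it limits the low members (CCNE1, CDKN1C) could not be measured.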
